A study of Mus musculus with 12 samples.

Results

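DZNep (3-deazaneplanocin A) was compared with no addition in cultured mouse podocytes at normal glucose, on 6 of the 12 Illumina expression arrays of a study that also used high glucose. Podocytes are the epithelial cells whose foot processes cover the outside of the glomerular capillaries and form the last part of the kidney's filter. The DZNep cells had DZNep for 48 h and 0 h of high glucose, and the control cells had 0 h of both, with 3 arrays in each group. The other 6 arrays held high glucose plus DZNep and high glucose alone, also 3 each and also for 48 h. The sources used here give no dose, no glucose concentration and no name for the cell line. Nothing in them states whether the replicates came from different cultures, and the p-values therefore cover the spread among these arrays alone, which may be technical. A gene entered the comparison when its probe had a detection p under 0.05 on at least 3 of these 6 arrays, which held for 9812 genes of 19057 with a named probe. Levels are normalized log2 intensities and a change is the DZNep mean minus the control mean. A gene was called where its adjusted p in limma was under 0.05.

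DZNep is an analogue of adenosine that blocks S-adenosylhomocysteine hydrolase, the enzyme (Ahcy) that clears the by-product of methylation reactions. The series names it as an inhibitor of EZH2, the enzyme of Polycomb repressive complex 2 (PRC2) that methylates lysine 27 of histone H3 and keeps genes silent. Because the by-product inhibits many methyltransferases, the compound is known to act on other methylation reactions as well. In mature cells Polycomb is known for keeping genes of other lineages and of earlier development off.

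Between 38.8% and 39.9% of probes were detected on the DZNep arrays and between 38.9% and 41.3% on the control arrays. Control replicate 3 stood apart: its score on the second principal component of all 12 arrays was 19.95, against -1.63 and 2.47 for control replicates 1 and 2, and its array weight in limma was 0.365. Calls were therefore also read without that array and with arrays centred on their medians, and a gene that passed all 3 ways in the same direction is termed a stable call below. The podocyte label held in part: of 16 podocyte markers on the array, 8 were detected on all 6 arrays, among them nephrin (Nphs1), synaptopodin (Synpo) and podocalyxin (Podxl). Ptpro, Foxc2, Tcf21, Plce1, Trpc6 and Dach1 were detected on no array of either group. The summed linear signal of the podocyte markers was 22192 to 23400 on DZNep arrays and 20023 to 22247 on control arrays. Such sums, here and below, include undetected probes and are led by the brightest members, here Synpo, so they do not describe a whole list.

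The named target of DZNep was itself expressed less. Ezh2 read 10.320, 10.319 and 10.405 on the DZNep arrays, against 11.341, 11.004 and 11.368 on the control arrays. Every DZNep array lay below every control array, and the change was -0.89 (SE 0.093, n = 3 per group, limma adjusted p = 5.89e-05). The other detected Ezh2 probe did not pass, and in high glucose the change at the probe given here was -0.25 (adjusted p = 0.0675), which did not pass either. Ahcy, the enzyme that DZNep blocks, read 9.61, 9.58 and 9.61 with DZNep, against 9.49, 9.27 and 8.98 in controls. The DZNep arrays were tight and all above the controls, of which replicate 3 was the lowest. Its change of 0.35 (SE 0.112, adjusted p = 0.0288) did not pass without control replicate 3 (0.22, adjusted p = 0.0969).

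Between the DZNep and control arrays 3526 genes were called, 2103 higher with DZNep (21.4% of those tested) and 1423 lower (14.5%). Most changes were small: 2225 of the 3526 were under 0.5 on the log2 scale, and 159 reached 2-fold. Stable calls numbered 1432 higher (14.6%) and 1030 lower (10.5%). In 46.2% of all genes the 3 DZNep arrays did not overlap the 3 control arrays. The median change over all genes was 0.05, and 0.01 with centred arrays, so the balance of higher over lower calls depends in part on the scaling. Of 1046 stable calls with more than 1 detected probe, every other probe passed in the same direction for 398, and a further probe passed the opposite way for 56. With genes in 5 equal classes by level, 12.7% of the dimmest class were higher and 9.88% lower, while the other 4 classes had 20.3% to 26.9% higher and 15.1% to 16.5% lower.

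**Figure D1:**
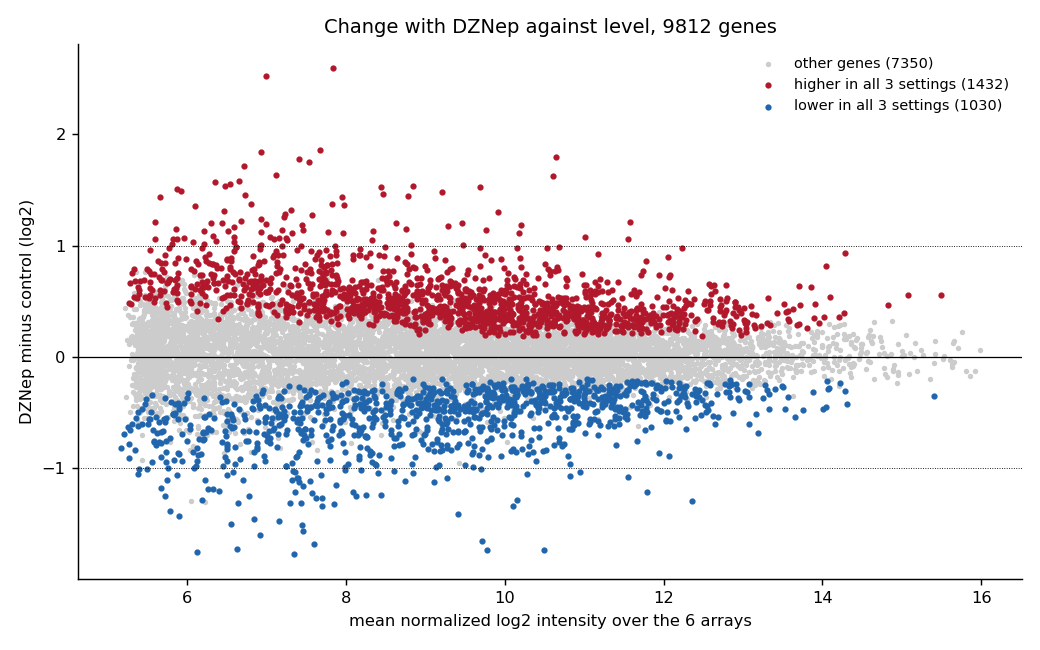
Each point is 1 of the 9812 genes, with its mean level over the 6 arrays (normalized log2 intensity) against DZNep minus control (log2). Red points are the 1432 stable rises, blue points the 1030 stable falls, grey points all other genes, and dotted lines mark 2-fold.

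The genes that rose most encode secreted factors, receptors, transporters and enzymes from many pathways. C2cd4a, which encodes a nuclear protein with a calcium-dependent domain, read 8.32, 8.38 and 8.07 with DZNep, against 5.84, 5.66 and 5.67 in controls. The groups lay over 2 log2 units apart with no overlap, and the change was 2.53 (SE 0.102, adjusted p = 1.33e-07). Edn1, the gene of the vasoconstrictor peptide endothelin-1, read 9.63, 9.67 and 9.52 with DZNep, against 8.10, 8.17 and 7.94 in controls. All 3 DZNep arrays were higher by more than a log2 unit, and Edn1 rose by 1.53 (SE 0.101, adjusted p = 2.59e-06). Cyp26b1, the enzyme that breaks down retinoic acid, had 7.77, 7.24 and 7.32 with DZNep, against 5.79, 6.11 and 5.69 in controls. It rose by 1.58 (SE 0.158, adjusted p = 4.49e-05), with the DZNep arrays spread more than for Edn1 and still clear of the controls.

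Fgd3, an exchange factor for the small GTPase Cdc42, rose by 1.86 and Slc25a2, a mitochondrial carrier of ornithine, by 1.57. Both held at a second probe of the gene. Bmp8a, a bone morphogenetic protein, rose by 1.53 and also held at its other probe. Ces2e, a carboxylesterase, rose by 1.63 and B3gnt8, a glycosyltransferase that extends N-linked sugar chains, by 1.55. The other large rises were those of Hba-a1 (2.59), Igfbp2 (1.85), Atg9b (1.80), Tnfrsf18 (1.78), Arvcf (1.75), Slc37a2 (1.72) and Ifit3 (1.63), with adjusted p from 1.03e-07 to 9.50e-06. Hba-a1 has a near-identical copy, Hba-a2, so its probe may read either.

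The largest falls differed in the spread of their control arrays. Of 73 stable falls of at least 2-fold, 29 had a control SD under 0.2, 20 had one from 0.2 to 0.4 and 24 had one of 0.4 or more. Control replicate 3 was the highest control in 11 of the 29, in 18 of the 20 and in 24 of the 24. Picking falls with a large control SD favours genes with a single high control array, so these counts are partly set by the selection. The share over all genes was not counted. Flrt1, a leucine-rich repeat membrane protein of cell adhesion, had tight controls: it read 6.70, 6.68 and 6.64 with DZNep, against 8.24, 8.32 and 8.18 in controls. The groups were each tight, and Flrt1 fell by 1.57 (SE 0.069, adjusted p = 1.82e-07). Pdgfrl, a secreted relative of the platelet-derived growth factor receptors, read 5.86, 5.73 and 5.82 with DZNep, against 7.39, 7.35 and 7.16 in controls. It fell by 1.50 (SE 0.098, adjusted p = 2.59e-06) with no overlap. Adgra1, an adhesion G protein-coupled receptor, read 8.94, 8.96 and 8.72 with DZNep, against 10.55, 10.63 and 10.43 in controls. Its fall of 1.66 held at its second probe. Sox9, a transcription factor of nephron and cartilage development, read 9.50, 9.56 and 9.45 with DZNep, against 10.73, 10.90 and 10.73 in controls. It fell by 1.29 (SE 0.067, adjusted p = 4.25e-07), and both of its probes passed as lower. Slc6a17, a transporter of neutral amino acids, fell by 1.12 (adjusted p = 9.54e-07).

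In the 24 falls with a control SD of 0.4 or more, replicate 3 lay above the mean of the other 2 control arrays by a median of 1.02, and in the 20 with a control SD from 0.2 to 0.4 by a median of 0.48. Hnrnpk, which binds nascent RNA and DNA, read 8.59, 8.55 and 8.95 with DZNep, against 9.67, 9.80 and 10.85 in controls. Every control array was above every DZNep array, but the controls themselves spanned more than a log2 unit, and the change was -1.41 (SE 0.294, adjusted p = 0.0037). Ctps2, a CTP synthase, read 6.02, 5.88 and 6.45 with DZNep, against 7.19, 7.14 and 8.39 in controls (change -1.46, SE 0.355, adjusted p = 0.00843). Neither gene had another probe that passed in the same direction. Shcbp1, a protein of dividing cells that binds the adaptor Shc, read 6.67, 6.80 and 6.85 with DZNep, against 7.63, 7.71 and 8.92 in controls (change -1.32, SE 0.261, adjusted p = 0.00284). The median change of the 24 genes was -1.31, and -0.94 without control replicate 3. That of the 20 genes was -1.07, and also -0.94 without it. The genes that shrank most without that array were Srp54a, Bmi1, Rnf13, Rbbp7, Gulp1 and Ddx5, and of these the call on Bmi1 was lost (adjusted p = 0.05002). The deepest of the named falls was that of Adss (-1.78), with controls at 7.80, 7.99 and 8.89. In high glucose its change of -0.42 did not pass. The remaining large falls included Eif4b, a translation initiation factor (-1.51), Smc4, a condensin subunit (-1.47), Cttn, the actin-binding protein cortactin (-1.32), and Chp1, a calcium-binding partner of ion exchangers (-1.32). The other detected probes of Eif4b and Smc4 did not pass. Whether the state of control replicate 3 contributed to these values was not tested beyond leaving it out.

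**Figure D2:**
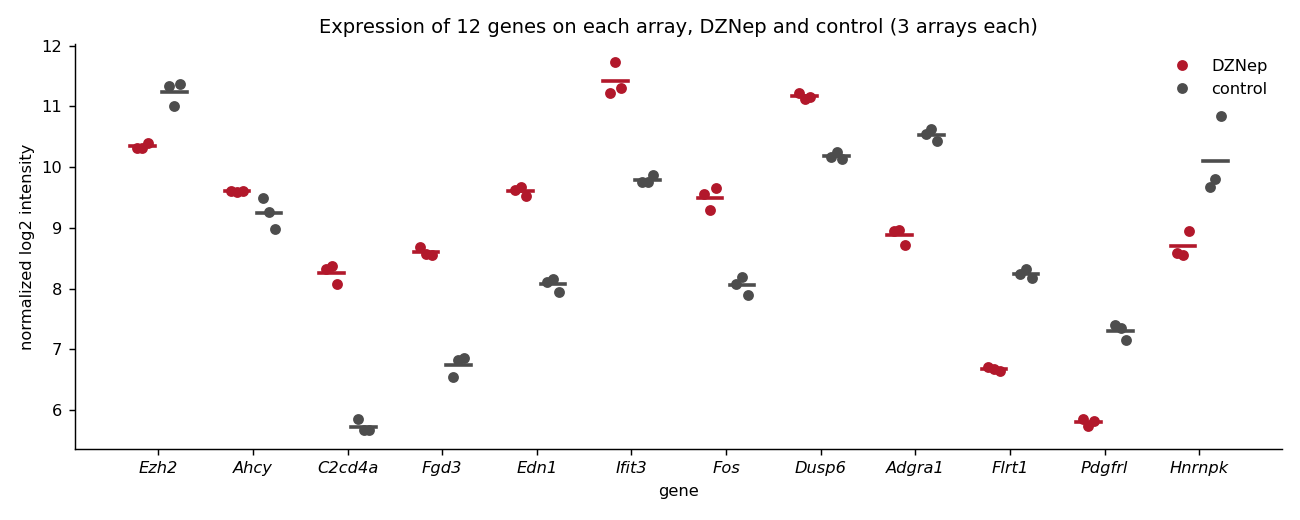
Normalized log2 intensity of 12 genes on each of the 3 DZNep arrays (red, left) and 3 control arrays (grey, right), with lines at the group means. C2cd4a, Fgd3, Edn1, Ifit3, Fos and Dusp6 lie higher with DZNep, Ezh2, Adgra1, Flrt1, Pdgfrl and Hnrnpk lie lower, and Hnrnpk shows the spread of the controls.

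Some genes crossed the detection limit between the groups. In all, 35 genes were detected on every DZNep array and on no control array, of which 32 were called higher. Another 49 were detected on every control array and on no DZNep array, of which 42 were called lower. Picking genes by detection largely set their direction in advance, so these counts and the adjusted p-values below give no separate support. For these genes a fold is a lower bound, since the dim group has no measured level. Evpl, which encodes the desmosome-linked protein envoplakin, read 6.21, 6.29 and 6.62 with DZNep and was not detected in controls, at least 1.93-fold higher with DZNep (adjusted p = 2.27e-05). Ly6f, a membrane-anchored protein of the Ly6 family, was at least 2.31-fold higher, and Ifi27l2a, an interferon-induced gene, at least 2.38-fold higher. Laptm5, a lysosomal protein of blood cells, was at least 1.72-fold higher, and Cpeb2, an RNA-binding regulator of translation, at least 1.69-fold higher. In the other direction Mrgprf, an orphan G protein-coupled receptor, read 6.93, 6.62 and 6.29 in controls and was not detected with DZNep, at least 2.26-fold lower with DZNep (adjusted p = 7.24e-05). Atp1b2, a beta subunit of the sodium pump, was at least 1.87-fold lower, and Blnk, an adaptor of B-cell receptor signalling, at least 1.76-fold lower. The other detected Blnk probe did not pass. Met, the hepatocyte growth factor receptor, was at least 2.05-fold lower, with controls at 5.87, 6.26 and 7.27 of which replicate 3 was the highest. Tgfbi was at least 2.95-fold lower.

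Gene groups were then set against the background of 21.4% higher and 14.5% lower. Without control replicate 3 the calls over all 9812 genes also fell, from 2103 to 1588 higher and from 1423 to 1118 lower. List counts without that array are to be read against this general drop. The largest share of higher members was among interferon-stimulated genes, the antiviral genes that interferon switches on through the factors STAT and IRF: 21 of 30 measured were higher and 2 lower, with a median change of 0.33, against 0.05 over all genes. Stable calls were 16 higher and 1 lower, as were the counts without control replicate 3. Ifit3, an antiviral RNA-binding protein, read 11.23, 11.73 and 11.31 with DZNep, against 9.75, 9.76 and 9.87 in controls. The DZNep arrays were higher by more than a log2 unit, although the second detected Ifit3 probe did not pass, and Ifit3 has a near-identical neighbour, Ifit3b. Igtp, an interferon-inducible GTPase, read 10.39, 10.39 and 10.40 with DZNep, against 9.50, 9.64 and 9.40 in controls, and rose by 0.88 (SE 0.084, adjusted p = 3.43e-05). Trim21, an antibody-binding ubiquitin ligase, read 8.10, 8.24 and 8.16 with DZNep, against 7.39, 7.35 and 7.28 in controls, and rose by 0.83 (SE 0.084, adjusted p = 5.07e-05). Both genes were tight in each group and did not overlap. Isg15, a ubiquitin-like modifier, rose by 0.80, Bst2, which tethers budding virus, by 0.78, Mx2, an antiviral GTPase detected on 1 control array, by 0.69 and Usp18, which removes Isg15 from proteins, by 0.65. Dhx58, an RNA sensor detected on all DZNep arrays and 2 control arrays, rose by 1.20. The members that fell were Ifitm2 (-0.41) and the RNA sensor Ddx58 (-0.29). The transcription factors of the pathway rose less, Stat2 by 0.38 and Irf9 by 0.30, and the call on Irf9 was not stable and went against its other probe.

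Promoters are shown for this group because its members share a known response element, and the 4 below are the members with the largest rise whose promoter holds it. The interferon-stimulated response element was searched as 2 copies of GAAA separated by any 2 bases, on both strands, from 250 bases before to 50 after the start of the gene in RefSeq (assembly GRCm38.p6). Of the 21 members called higher, 16 had a promoter in the table and 11 of these held the element in any promoter of the gene. By the first promoter of each gene, 15 of 23 measured list members with a promoter held it (65.2%), whether called or not. The share was 3.03% of 7976 tested genes with a promoter, also by the first promoter, and 3.44% of all 32851 promoters. The 7 measured members with no promoter were not searched, so the share covers under 80% of the list. Capitals mark each match.

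Ifit3 promoter, chr19:34583279-34583578 (+ strand): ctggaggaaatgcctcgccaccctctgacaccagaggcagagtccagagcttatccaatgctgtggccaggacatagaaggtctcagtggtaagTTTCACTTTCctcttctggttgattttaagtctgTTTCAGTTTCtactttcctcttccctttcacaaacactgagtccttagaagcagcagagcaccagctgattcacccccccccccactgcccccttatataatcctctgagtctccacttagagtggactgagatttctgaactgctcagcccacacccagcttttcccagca
Igtp promoter, chr11:58199306-58199605 (+ strand): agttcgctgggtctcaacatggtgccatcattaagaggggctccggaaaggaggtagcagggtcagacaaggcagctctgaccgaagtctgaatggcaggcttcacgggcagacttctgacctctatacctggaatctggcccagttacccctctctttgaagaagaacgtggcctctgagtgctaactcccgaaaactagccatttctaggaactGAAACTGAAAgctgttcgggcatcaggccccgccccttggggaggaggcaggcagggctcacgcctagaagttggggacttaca
Trim21 promoter, chr7:102565433-102565732 (- strand): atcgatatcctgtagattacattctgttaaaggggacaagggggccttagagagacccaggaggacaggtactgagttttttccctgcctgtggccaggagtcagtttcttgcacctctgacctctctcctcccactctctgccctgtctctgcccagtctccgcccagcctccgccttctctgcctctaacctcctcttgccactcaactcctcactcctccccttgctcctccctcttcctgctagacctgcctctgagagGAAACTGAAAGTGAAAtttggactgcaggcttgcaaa
Isg15 promoter, chr4:156200769-156201068 (- strand): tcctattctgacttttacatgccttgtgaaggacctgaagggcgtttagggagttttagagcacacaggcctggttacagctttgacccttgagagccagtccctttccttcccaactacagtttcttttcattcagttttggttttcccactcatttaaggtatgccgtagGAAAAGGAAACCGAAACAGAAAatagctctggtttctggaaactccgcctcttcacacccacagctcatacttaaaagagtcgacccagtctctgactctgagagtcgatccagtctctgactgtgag

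Ifit3 and Trim21 each hold 2 matches, Isg15 holds 3 and Igtp holds 1. Among all stable rises with a promoter 4.12% held the element. A match is a run of letters, and binding was not measured.

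The immediate early genes, transcription factors and feedback genes that growth-factor and stress signals switch on within minutes, also stood high. Of 19 measured, 11 were higher and 0 lower, and the 11 were stable calls, with a median change of 0.43 over the list. Fos, a subunit of the factor AP-1, read 9.55, 9.29 and 9.65 with DZNep, against 8.07, 8.20 and 7.89 in controls. The groups were more than a log2 unit apart, and Fos rose by 1.44 (SE 0.121, adjusted p = 1.43e-05). Junb, its partner, read 11.22, 10.94 and 11.03 with DZNep, against 10.31, 10.36 and 10.16 in controls, and rose by 0.78 (SE 0.093, adjusted p = 0.000135). Egr1 rose by 0.74, Jun by 0.72, Klf4 by 0.62 and Srf, the factor that drives many of these genes, by 0.49. Zfp36, which destabilises cytokine mRNAs, rose by 0.79, as did Fosb, which was detected on all DZNep arrays and 1 control array.

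The phosphatases that switch off MAP kinases were counted with other feedback inhibitors of growth-factor signalling. Of 21 measured DUSP, Sprouty and Spred genes, 9 were higher (42.9%) and 1 lower (4.76%), with 8 and 1 stable and a list median of 0.12. Dusp6, which acts on ERK and is itself induced by ERK signalling, read 11.23, 11.12 and 11.16 with DZNep, against 10.16, 10.25 and 10.14 in controls. Both groups were tight and far apart, and Dusp6 rose by 0.98 (SE 0.060, adjusted p = 1.69e-06). Both of its probes passed as higher. Dusp4, another phosphatase of ERK, read 7.54, 7.11 and 7.54 with DZNep, against 6.40, 6.63 and 6.25 in controls, and rose by 0.97. Each of its 3 probes passed as higher. Dusp5, the nuclear phosphatase of ERK, rose by 0.90 and Dusp1 by 0.52. Dusp23, an atypical member, fell by 0.26.

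Solute carriers, the membrane transporters of nutrients and ions, had 52 of 156 higher (33.3%) and 15 lower (9.62%) and a median of 0.14. Slc29a4, a transporter of monoamines and nucleosides, read 8.26, 7.82 and 7.83 with DZNep, against 6.89, 6.71 and 6.34 in controls, and rose by 1.32 (SE 0.161, adjusted p = 0.000154). Other rises were those of the bicarbonate transporter Slc4a4 (0.99), the cationic amino acid transporter Slc7a3 (0.90) and the fatty acid transporter Slc27a4 (0.76). Falls included Slc25a17, a peroxisomal carrier (-0.75), and Slc38a2, a glutamine transporter (-0.49).

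Cytosolic ribosomal proteins, replication-dependent histones, splicing genes and nuclear pore genes had shares lower of 27.3% to 39.6% and shares higher of 3.77% to 9.09%, against 14.5% and 21.4% over all genes. Of 53 cytosolic ribosomal protein genes, 21 were lower and 2 higher, and the median was -0.15. Rpl22 read 10.89, 10.89 and 10.86 with DZNep, against 11.39, 11.62 and 11.37 in controls, and fell by 0.58 (SE 0.077, adjusted p = 0.000273). Rpl30 read 10.57, 10.40 and 10.58 with DZNep, against 11.09, 11.08 and 11.33 in controls, and fell by 0.65 (SE 0.099, adjusted p = 0.000613). Neither gene's groups overlapped, and the falls of this list were shallow: the lowest was Rps6 at -0.69. Without control replicate 3, 14 were lower and 2 higher. Ribosomal protein genes have many processed pseudogenes that a probe may also read. Mitochondrial ribosomal proteins did not lean that way, with 16 of 72 higher (22.2%) and 8 lower (11.1%). Among translation factors 8 of 53 were higher and 12 lower, and 3 and 10 without control replicate 3. Eef2, the elongation factor that moves the ribosome along, read 11.041, 10.820 and 11.164 with DZNep, against 11.847, 11.999 and 12.427 in controls. It fell by 1.08, and each of its 3 probes passed as lower. Eef1b2, an elongation factor subunit, fell by 0.86 at its brightest probe, and each of 3 probes passed as lower.

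Replication-dependent histone genes, whose mRNAs are made while DNA is copied, had 16 of 43 lower and 2 higher, with a median of -0.24. H2ac21 read 9.10, 8.94 and 9.24 with DZNep, against 9.67, 9.57 and 9.75 in controls, and fell by 0.57 (SE 0.084, adjusted p = 0.000473). H3c7 fell by 0.62, with a second probe that passed the opposite way, while H2ac18 rose by 0.59. Copies in this family are nearly identical, so single members are uncertain. Of 56 hnRNP and core splicing genes 16 were lower and 5 higher, or 13 and 1 without control replicate 3, and the list median was -0.02. Its deepest falls, Hnrnpa2b1 (-1.74), Hnrnpk (-1.41), Hnrnpf (-0.97) and Srsf10 (-0.85), had control replicate 3 as the highest control. The other detected probes of Hnrnpa2b1 and Hnrnpk did not pass. Nuclear pore genes had 6 of 22 lower and 2 higher, or 6 and 1 without control replicate 3, with Nup54 at -0.67, Nup210 at -0.45 and Nup88 at -0.42.

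**Figure D3:**
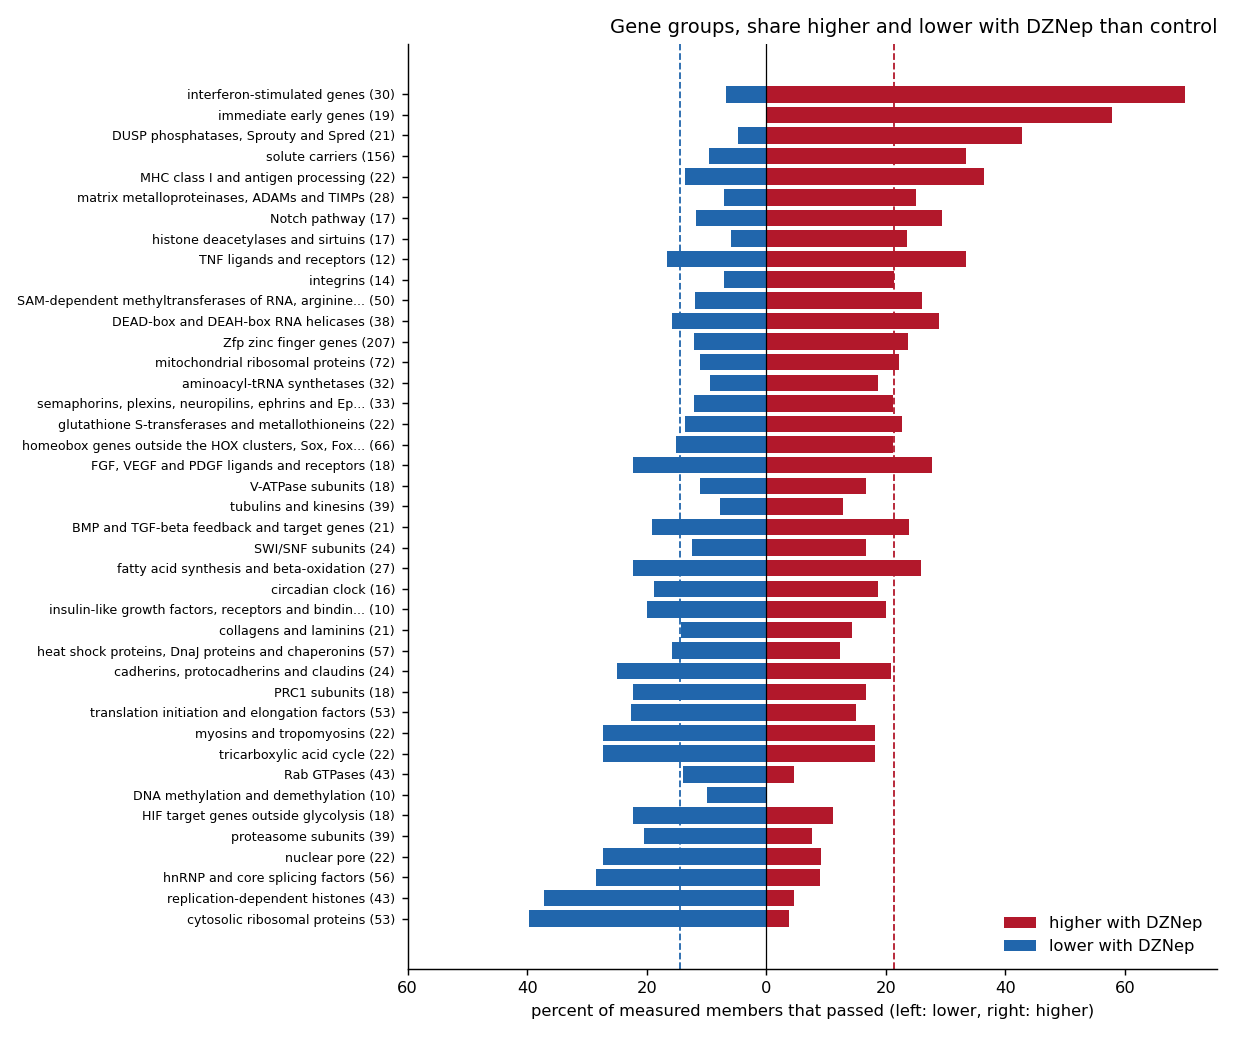
Share of the measured members of each gene group (number in brackets) that were higher (right, red) and lower (left, blue) with DZNep, as percent. Dashed lines mark the shares over all 9812 genes, 21.4% higher and 14.5% lower, which interferon-stimulated and immediate early genes exceed on the right and ribosomal proteins and histones on the left.

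The other chromatin and methylation lists had shares of 0% to 26.0% higher and 5.88% to 22.2% lower. Of 18 subunits of PRC1, the complex that acts beside PRC2, 3 were higher and 4 lower, or 3 and 2 without control replicate 3: Scmh1 rose by 0.64 and Kdm2b by 0.53, while Rybp fell by 0.60. The other detected Kdm2b probe did not pass, and the call on Kdm2b was lost with probes averaged (limma adjusted p = 0.839). The list of SWI/SNF remodelling subunits, a class that opposes Polycomb, had 4 of 24 higher and 3 lower, or 1 and 3 without control replicate 3. Its stable rise was that of Smarca5 (0.50), which belongs to the ISWI remodellers instead. Among its falls, Smarcc1 (-0.53) had a second probe that passed the opposite way. Histone deacetylases and sirtuins had 4 of 17 higher and 1 lower, or 1 and 1 without that array, and the member that fell was Sirt1 (-0.45). Of 10 DNA methylation and demethylation genes 1 changed, the repair glycosylase Tdg (-0.40). Of 50 methyltransferases of RNA, arginine and small molecules that also use S-adenosylmethionine, 13 were higher and 6 lower, or 7 and 5 without control replicate 3. Trmt12, a tRNA-modifying enzyme, read 7.96, 8.20 and 7.95 with DZNep, against 7.24, 7.11 and 6.90 in controls, and rose by 0.95 (SE 0.104, adjusted p = 7.62e-05). Mettl3, which places N6-methyladenosine on mRNA, rose by 0.61 and Inmt, an amine methyltransferase, by 0.62, while Mettl9 fell by 0.63. The other detected probes of Mettl3 and Mettl9 did not pass.

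Transcription factors of development were called in shares near those over all genes. Of 66 measured homeobox, Sox, Fox, Gata and Tbx genes, 14 were higher (21.2%) and 10 lower (15.2%), or 9 and 10 without control replicate 3. Gata3, which is also a mesangial marker, read 8.18, 8.30 and 8.50 with DZNep, against 7.04, 7.55 and 7.01 in controls, and rose by 1.13 (SE 0.136, adjusted p = 0.000143). Foxo3 rose by 0.63, and Pax8, a factor of the early nephron, fell by 0.56. Of 207 zinc finger genes named Zfp, 49 were higher (23.7%) and 25 lower (12.1%), or 35 and 13 without control replicate 3, and the largest rise was that of Zfp385a (1.12). Clock genes were split, 3 of 16 each way: Dbp, an output factor of the clock, fell by 0.84 and Per2, a repressor within it, rose by 0.55.

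Single growth factors, receptors and their targets changed in each direction. Fgf10, a growth factor of epithelial branching, read 8.78, 8.94 and 8.84 with DZNep, against 7.85, 7.86 and 7.70 in controls, and rose by 1.05 (SE 0.075, adjusted p = 4.71e-06). Vegfd, a ligand for lymphatic vessel growth, read 7.63, 7.76 and 7.72 with DZNep, against 8.72, 8.77 and 8.36 in controls, and fell by 0.91 (SE 0.106, adjusted p = 0.000117). The groups of both genes were well apart, and their list had 5 of 18 higher and 4 lower, a count that includes Fgfr1op2 (-0.68), which is no growth factor receptor. Bmp4, a morphogen, read 11.62, 11.58 and 11.45 with DZNep, against 10.45, 10.62 and 10.36 in controls, and rose by 1.08 (SE 0.104, adjusted p = 3.58e-05). Its direct targets Id1 and Id2 rose by 0.63 and 0.61, and the BMP and TGF-beta list as a whole had 5 of 21 higher and 4 lower, or 3 and 3 without control replicate 3. Notch3, a Notch receptor, rose by 1.04 and the Notch target Hey2 by 0.65, while the coactivator Maml2 fell by 0.43, in a list with 5 of 17 higher and 2 lower, or 4 and 1 without that array. Epha1, an ephrin receptor, rose by 1.26 and the semaphorin Sema7a by 0.63. Irs2, an adaptor of the insulin receptor, rose by 0.89, and Igfbp6, a binding protein for insulin-like growth factor, fell by 0.70. Tnfrsf21, a death receptor, rose by 0.64 and Tnfsf13b, the B-cell cytokine BAFF, fell by 0.56.

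Genes of shape, adhesion and matrix matter to podocytes because foot processes rest on actin and on the collagen IV of the basement membrane. Itgb1, the main integrin beta chain of podocytes, read 9.64, 9.71 and 9.71 with DZNep, against 10.71, 10.16 and 10.66 in controls, and fell by 0.83 (SE 0.131, adjusted p = 0.000769), although its second probe did not pass. The integrins Itgb6, Itga6 and Itga1 rose by 0.68, 0.49 and 0.34. Of 21 collagens and laminins 3 were higher and 3 lower: Col5a1 fell by 0.50, Col4a3 by 0.98 with control replicate 3 highest, and its partner chain Col4a4 rose by 0.41. The 2 other detected Col4a4 probes did not pass, and its call was lost with probes averaged and with the 6 arrays alone. Adamts12 and Mmp9, proteases of the matrix, fell by 0.82 and 0.67. The myosin light chain Myl9 fell by 0.53 and the motor Myo1c rose by 0.52, although the other detected Myo1c probes did not pass. Of 39 tubulins and kinesins 5 were higher and 3 lower, with the mitotic kinesin Kif18b rising by 0.74 and Kif23, another mitotic kinesin, falling by 0.56. The list medians of collagens and laminins, of tubulins and kinesins, of matrix proteases and of the BMP and TGF-beta group turn from positive to negative when arrays are centred, so no direction is given for these lists.

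In metabolism, Pcx, the enzyme that makes oxaloacetate from pyruvate, read 7.97, 7.84 and 7.97 with DZNep, against 6.80, 7.30 and 6.69 in controls, and rose by 1.00 (SE 0.150, adjusted p = 0.000571). Ogdh, a dehydrogenase of the tricarboxylic acid cycle, rose by 0.74 and Idh3a by 0.49, while Idh1 fell by 0.43, and the list had 4 of 22 higher (18.2%) and 6 lower (27.3%). In fatty acid metabolism 7 of 27 were higher and 6 lower: Srebf1, the factor that drives lipid synthesis, rose by 0.84 and Cpt1b, which brings fatty acids into mitochondria, by 0.92, while the desaturases Scd2 and Scd1 fell by 0.77 and 0.44. HIF targets outside glycolysis had 2 of 18 higher (11.1%) and 4 lower (22.2%), or 1 and 5 without control replicate 3, with Kdm3a at -0.64 and Fam162a at -0.57. Mgst1, a glutathione transferase, fell by 0.65 and the metallothionein Mt1 by 0.43. Proteasome subunits had 3 of 39 higher (7.69%) and 8 lower (20.5%), or 1 and 5 without control replicate 3, with a median of -0.11. Chaperones had 7 of 57 higher and 9 lower, and V-ATPase subunits 3 of 18 higher and 2 lower. Rab GTPases had 2 of 43 higher and 6 lower, or 1 and 5 without that array, and tRNA synthetases had 6 of 32 higher (18.8%) and 3 lower (9.38%). Among MHC class I and antigen-processing genes 8 of 22 were higher and 3 lower, or 6 and 1 without control replicate 3, with the transactivator Nlrc5 rising by 0.52 and H2-Q7, one of several similar copies, by 0.84.

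Of the remaining lists, integrins had 3 of 14 higher and 1 lower, cadherins, protocadherins and claudins 5 of 24 higher and 6 lower, or 2 and 6 without control replicate 3. Matrix proteases had 7 of 28 higher and 2 lower, but 2 higher and 3 lower without that array, and 1 and 2 of the calls were stable. Semaphorins, ephrins and their receptors had 7 of 33 higher and 4 lower, TNF ligands and receptors 4 of 12 higher and 2 lower, the insulin-like growth factor list 2 of 10 higher and 2 lower, and glutathione transferases with metallothioneins 5 of 22 higher and 3 lower. Myosins and tropomyosins had 4 of 22 higher (18.2%) and 6 lower (27.3%), or 2 and 4 without control replicate 3. RNA helicases of the DEAD and DEAH families had 11 of 38 higher (28.9%) and 6 lower (15.8%), or 7 and 3 without it. Medians of the other lists described here with no median given above lay between -0.11 (proteasome) and 0.20 (Notch), apart from the pair of measured erythroid genes, in which Hba-a1 alone passed.

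The same compound was given in high glucose on 6 arrays that share no sample with this comparison, although they were normalized together and share 1 estimate of spread. There, 1299 genes were called higher (13.2%) and 1223 lower (12.5%). Of the 1432 stable rises at normal glucose, 870 were also called higher there and 2 lower, and of the 1030 stable falls, 595 were also called lower and 8 higher. Of the largest changes, 80 of 84 stable rises of at least 2-fold were called in high glucose, and 38 of 73 stable falls of that size. Among the falls, those with a control SD under 0.2 were called there in 28 of 29 genes, with a median change of -1.26. Those with a control SD from 0.2 to 0.4 were called in 10 of 20, with a median of -0.51. Those with a control SD of 0.4 or more were called there in 0 of 24 genes, with a median of -0.17. In these 24 genes high glucose replicate 1 was the highest of its group in 24 of 24, against 12 of the 29 and 14 of the 20. High glucose minus control had a median of -0.87 in the 24 genes, which were picked by their control arrays. How often replicate 1 was the highest over all genes was not counted. Whether these 24 falls reflect DZNep or the spread of the arrays without it was not tested.

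**Figure D4:**
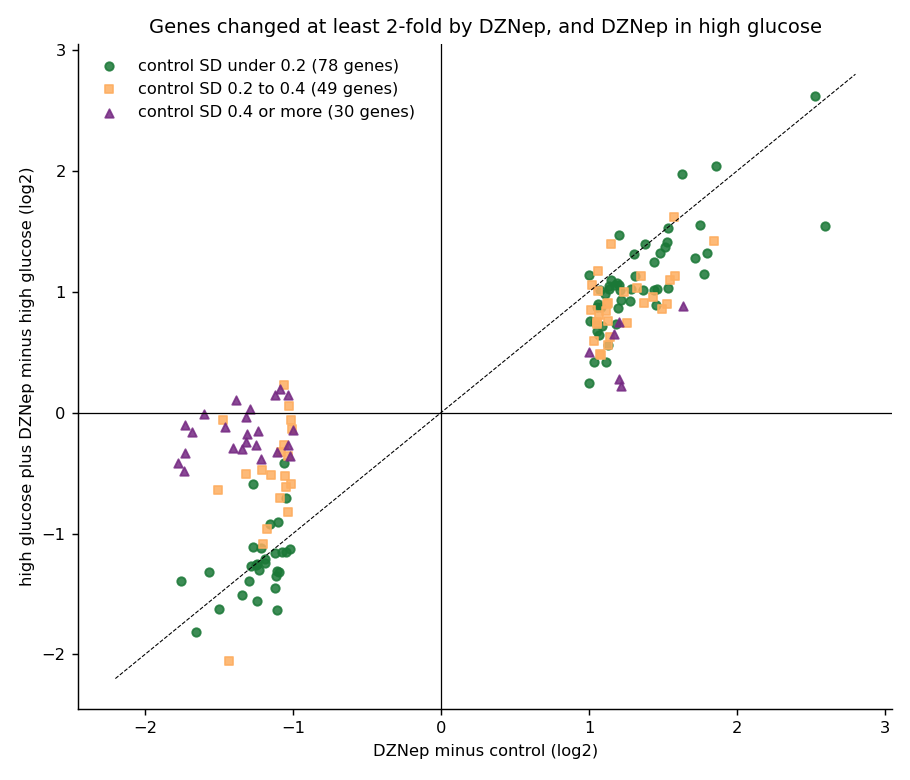
Genes with a stable change of at least 2-fold, by DZNep minus control (x axis, log2) and by high glucose plus DZNep minus high glucose (y axis, log2), with equality dashed. Most falls with a control SD under 0.2 (circles) lie near the dashed line, those with a control SD of 0.4 or more (triangles) lie near 0 on the y axis, and those from 0.2 to 0.4 (squares) have a median of -0.51 on that axis.

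**Figure D5:**
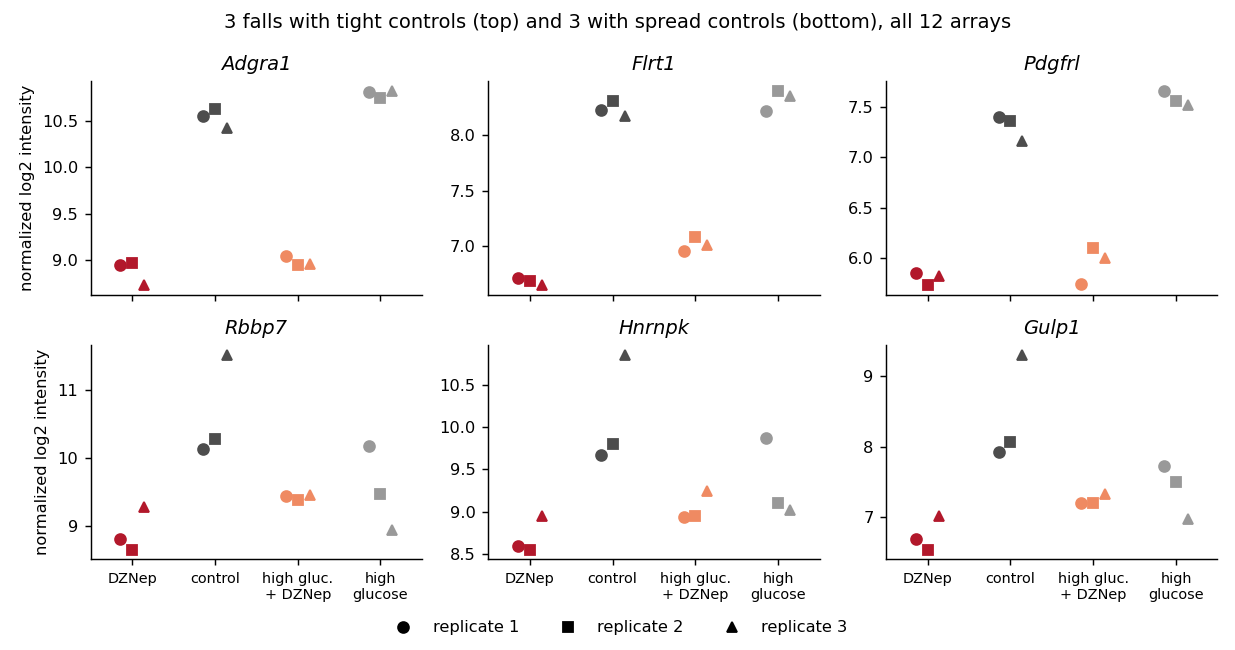
Normalized log2 intensity on all 12 arrays of 3 falls with tight controls (Adgra1, Flrt1, Pdgfrl, top) and 3 with spread controls (Rbbp7, Hnrnpk, Gulp1, bottom), symbols giving replicates. In the top row each group is tight and both pairs differ, while in the bottom row control replicate 3 and high glucose replicate 1 are the highest of their groups.

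Gene groups were also counted in high glucose. Over all genes 969 (9.88%) were called higher in both comparisons and 682 (6.95%) lower in both. Interferon-stimulated genes had 15 of 30 higher and 2 lower there, and 13 were called higher in both. Immediate early genes had 7 of 19 higher in both, and 1 lower in high glucose. Ribosomal proteins had 16 of 53 lower in both, and replication-dependent histones 11 of 43. Of the 16 hnRNP and splicing genes lower at normal glucose, 2 were called lower in both.

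Markers of other kidney and blood cells were checked in the same 6 arrays. Of 10 endothelial markers, Pecam1, Cdh5, Flt1, Tek, Tie1 and Emcn were detected on no array. Esam, Eng and Ehd3 rose (0.98, 0.80 and 0.53), while Kdr, also detected on all 6 arrays, did not pass (-0.20). The summed signal of the endothelial list, led by Ehd3, was 690 to 798 with DZNep, against 485 to 572 in controls. Of 8 leukocyte markers Ptprc, Adgre1, Tyrobp and Itgam were on no array, while Laptm5 and Csf1r (0.47) were higher, Csf1r not without control replicate 3 (adjusted p = 0.104). Cd74 was detected on 2 control arrays and no DZNep array. Cd3e, detected on 1 DZNep array and 2 control arrays, did not pass (-0.19). The leukocyte list had sums of 263 to 316 with DZNep, against 200 to 242 in controls. The mesangial and smooth muscle list had 2 of 9 higher, Gata3 and Pdgfrb (0.69). Acta2 (15.85 with DZNep, against 15.99 in controls), Tagln (11.11 and 11.08) and Des (6.89 and 6.60) were detected on all 6 arrays and did not pass, and Myh11 and Cnn1 were on no array. The list had sums of 60526 to 64025 with DZNep, against 66632 to 68497 in controls. Most of these sums is the signal of Acta2, which did not pass. The tubular list had 6 of 10 markers on all 6 arrays: Cdh1 was higher (0.62), Cdh16 (13.16 with DZNep, against 13.50 in controls) was lower, and Lrp2 (11.40 in both), Aqp1 (10.72 and 10.63), Slc12a3 (10.03 and 10.05) and Slc12a1 (5.89 and 5.84) did not pass. Umod, Aqp2, Slc34a1 and Epcam were on no array, and the list had sums of 13761 to 16515 with DZNep, against 16616 to 17204 in controls. The parietal list had 6 of 8 markers on all 6 arrays, with Pax8 and Cldn2 (-0.32) lower, and sums of 5968 to 6062 with DZNep, against 6360 to 7005 in controls. Among podocyte markers, Nphs1 changed by 0.22 (adjusted p = 0.0186), Lmx1b by 0.28 (adjusted p = 0.0351) and Cd2ap by -0.39 (adjusted p = 0.0294), and of these the call on Nphs1 was stable. In bulk RNA, fewer cells of a kind and less RNA per cell cannot be told apart, and the part of other cells in these results was not tested.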

How the data were processed

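Probe signals were deposited by the authors as linear intensity values, not normalized, and each carries a detection p-value of its probe and array, per the file headers. The tool GenomeStudio is listed, per the submitters' processing notes. A deposited table of the authors' processed intensity values was a linear function of each array's raw signal with a common mean of 568.254 and medians of 9.97 to 11.39, so an offset of unstated purpose had been subtracted. Its scale is linear and its direction that of the raw signal.

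Intensities of the 12 arrays went through neqc (limma 3.58.1, R 4.3.3), which estimates background from the detection p-values, applies normexp with an offset of 16 and quantile normalization, and returns log2 values, so folds of dim genes are understated. Of 45281 probes, 34885 had 1 gene symbol, 18 several and 10378 none, and 34807 probes had a gene ID that matched RefSeq (GRCm38.p6). The brightest probe over the 6 arrays stood for each gene (15457 detected probes, 9812 genes, 3820 with further probes). Further probes were judged in a fit across all detected probes. A model of 4 group means was fitted with lmFit and eBayes (11.45 degrees of freedom), with Benjamini-Hochberg adjustment. The number of arrays limits the precision. An "at least" fold sets the bright group's mean against the higher, per array, of the dim probe's own signal and the lowest detected signal. The scripts were tested on simulated data.

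Same-numbered DZNep and control arrays deviated from their group means with correlations of -0.0933, -0.0647 and 0.197. With 3 arrays per group these cannot settle whether the numbers pair samples, and the main model did not pair them. The comparison and the gene lists were chosen with earlier results of these data known. Genes named are Ezh2, Ahcy, up to 15 stable non-overlapping changes in each direction detected on all 6 arrays, up to 5 in each direction that crossed detection, up to 4 per list, up to 6 that shrank most without control replicate 3, and up to 4 promoters. Other list members and markers were named after their values were seen. Alternatives were another background correction or normalization, the authors' values, other filters, all probes averaged, the 6 arrays alone, array weights, a replicate block and leaving out each array. A gene list is not reported here.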

Additional observations from a re-analysis of the deposited data

Results flagged for a closer look

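For 8 genes the change with DZNep in high glucose differed from that at normal glucose by a test of the difference itself (an interaction term in limma, n = 3 arrays per group, adjusted p from 0.0262 to 0.0424). The difference given is high glucose minus normal glucose, on the log2 scale. In 4 of them the changes were opposite: Akap9, a scaffold of the centrosome and Golgi, was higher in high glucose (0.68) and lower at normal glucose (-0.31), a difference of 0.99. Bod1l, a protein of replication fork protection, was higher in high glucose (0.71) and lower at normal glucose (-0.90), a difference of 1.61. Ncapg2, a condensin II subunit, was higher in high glucose (0.46) and lower at normal glucose (-0.37), a difference of 0.82. Zc3h12a, an RNase that degrades cytokine mRNAs, ran the other way, lower in high glucose (-0.25) and higher at normal glucose (0.47), a difference of -0.72. In each of these 4 genes the control and the high glucose arrays, both without DZNep, did not overlap. The interaction term uses these same arrays, so this gives no separate support. The share of all genes without such overlap was not counted. Ncapg2 read 7.26, 7.30 and 7.50 in controls, against 6.59, 6.63 and 6.54 in high glucose. Its DZNep arrays overlapped, at 7.08, 6.88 and 7.01 at normal glucose and 7.10, 6.96 and 7.07 in high glucose.

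Smc4, a condensin subunit, changed by -0.06 in high glucose and by -1.47 at normal glucose, a difference of 1.41. Neither of its 2 other detected probes passed at normal glucose. The Smc4 level was 6.76, 6.74 and 6.98 on the high glucose arrays without DZNep, against 7.78, 7.62 and 8.27 on the control arrays. These groups did not overlap, with the same limit as above. Hba-a1 rose in both, by 1.55 in high glucose and by 2.59 at normal glucose, a difference of -1.05. Matn4, a matrix protein of the matrilin family, rose by 0.25 in high glucose and by 1.00 at normal glucose, a difference of -0.75. Nfatc1, a calcium-regulated transcription factor, fell in both, by 1.12 in high glucose and by 0.36 at normal glucose, a difference of -0.76. The number of such genes moved widely between settings.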

How the results depend on the processing

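The counts of genes higher (2103) and lower (1423) stayed within 1.5 times under each of the 16 alternatives, at 1413 to 2252 higher and 987 to 1597 lower. The lowest higher count came with centred arrays and without control replicate 3, an alternative chosen after seeing the data, and the lowest lower count came from the 6 arrays alone. With centred arrays the share of higher calls was 53% instead of 59.6%. Under the replicate block, which treats same-numbered arrays as a block, 2004 were higher and 1368 lower. Leaving out single arrays gave 1549 to 2015 higher and 1087 to 1343 lower. Of 197 named genes, which all passed, 157 passed under every alternative that could test them and 39 lost the call under at least 1. Smarcc1 changed sign when its probes were averaged (0.0836, adjusted p = 0.597). The cause was not tested.

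The 8 genes whose change differed by glucose did not form a steady count: it was 170 without background correction, 0 with the authors' values, 15 with detection on all 6 arrays, 4 without a filter, 24 under the replicate block, 57 with array weights, 0 with centred arrays and without control replicate 3, and 0 to 49 without single arrays (0 without DZNep replicate 1 or 2, 49 without control replicate 1, 18 without control replicate 2). The cause was not tested. Detection on few arrays limits the dim genes, for which the filter and the background correction set the values.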
